A study of Mus musculus with 67 samples.

Results

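Described here are 5 homeobox genes in RNA-seq of mouse forelimb buds, *Alx1*, *Alx4*, *Prrx1*, *Prrx2* and *Shox2*. They were found by their symbols in the gene tables, which list 46983 gene IDs in each of 14 libraries, and each symbol matched 1 ID. All libraries came from Swiss Webster mice. The E9.25 samples were whole forelimb buds of embryos with 21 to 23 somites, taken before Hedgehog (HH) signaling begins in the limb, with 3 WT and 4 *Gli3*-/- libraries. The E10.5 samples were the anterior part of forelimb buds of embryos with 32 to 35 somites, taken after HH signaling has begun, with 4 WT and 3 *Gli3*-/- libraries. The *Gli3*-/- genotype is homozygosity for the Gli3 Xt-J allele, a germline deletion of part of the gene in every cell. Each library was a pool. The sample records put about 4 pairs of buds in an E9.25 library and 2 pairs in an E10.5 library, whereas the study's methods give about 4 pairs at both stages. The buds came from several litters, and nothing ties a library to a litter of its own, so the p-values measure the spread between pools. Stage and dissection changed together, and whole against anterior bud cannot be told apart from E9.25 against E10.5.

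The 5 genes encode homeodomain transcription factors of the paired class, which bind DNA at a short core and can pair up on a palindrome of that core. *Prrx1* and *Prrx2* are expressed throughout the mesenchyme of the early limb bud and act together in the growth of the limb skeleton. *Alx4* is expressed in the anterior mesenchyme, and mice without it form extra anterior digits. *Alx1* is best known for its part in the face and skull. *Shox2* acts in the proximal bud and is needed for the humerus to grow. GLI3 works mostly as a repressor in anterior cells that receive no HH ligand, and loss of *Gli3* gives polydactyly.

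Values are in TPM, a measure of transcript abundance that is scaled for gene length and library size. Estimated depth was 38.1 to 56.8 M reads per library, at which 1 TPM amounts to 20.7 to 29.3 reads for each kilobase of transcript. The tables give 1 value per gene, so reads from the part of *Gli3* that Xt-J leaves still count. *Gli3* stood at 73.4 to 89.7 TPM in E10.5 WT and at 38.7 to 40.9 TPM in E10.5 *Gli3*-/-. At E9.25 it stood at 44.2, 15.8 and 44.6 TPM in WT and at 14.3 to 20.8 TPM in *Gli3*-/-, so that WT replicate 2 lay inside the range of the mutants and stood apart from its group. The values of the 5 homeobox genes in tests that include that library are therefore also given without it. So are some of those for the gene lists and markers. All 5 limb mesenchyme markers (*Tbx5*, *Fgf10*, *Lmx1b*, *Twist1*, *Msx1*) averaged at least 1 TPM in every group, and none of the 5 neural tube markers did. Erythroid markers were high and variable, with summed levels of 6912 to 33323 TPM. In bulk tissue, fewer cells that express a gene and less RNA per cell cannot be told apart.

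*Alx1* (chr10:103007846-103029054, minus strand, ENSMUSG00000036602.13, mm10 as named in the submitters' processing notes) was read at 34.6, 27.03 and 26.1 TPM in the 3 E9.25 WT libraries and at 37.5, 41.6, 35.8 and 36.9 TPM in the 4 *Gli3*-/- libraries. At E10.5 it was at 7.58, 6.85, 5.81 and 5.71 TPM in WT and at 2.26, 1.24 and 1.79 TPM in *Gli3*-/-. The 4 groups did not overlap at all, with the E9.25 *Gli3*-/- libraries highest and the E10.5 *Gli3*-/- libraries lowest.

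*Alx4* (chr2:93642384-93681339, plus strand, ENSMUSG00000040310.12) was at 14.6, 11.2 and 13.5 TPM in E9.25 WT and at 6.73, 12.8, 11.5 and 8.07 TPM in E9.25 *Gli3*-/-. In the E10.5 WT libraries it was at 52.9, 31.9, 51.0 and 51.0 TPM, and in E10.5 *Gli3*-/- at 6.22, 3.73 and 1.05 TPM. The E9.25 genotypes overlapped. At E10.5 even the lowest WT library, replicate 2, lay far above the highest *Gli3*-/- library, and the *Gli3*-/- libraries differed widely among themselves.

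*Prrx1* (chr1:163245119-163313710, minus strand, ENSMUSG00000026586.16) was among the more abundant of the 5 genes in every group. It was at 125, 70.5 and 104 TPM in E9.25 WT and at 79.0, 114, 81.1 and 98.1 TPM in E9.25 *Gli3*-/-. The E10.5 values were 255, 223, 263 and 302 TPM in WT and 169.5, 177 and 181 TPM in *Gli3*-/-. All E10.5 libraries lay above all E9.25 libraries, and the genotypes were apart only at E10.5.

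*Prrx2* (chr2:30834972-30881251, plus strand, ENSMUSG00000039476.13) varied least. It was at 148, 160.2 and 127 TPM in E9.25 WT and at 123, 166, 165 and 155 TPM in *Gli3*-/- of that stage, at 174, 137, 175 and 162 TPM in E10.5 WT and at 104, 133 and 110.0 TPM in E10.5 *Gli3*-/-. The 2 genotypes were separated only at E10.5, where the highest *Gli3*-/- library came close to the lowest WT library.

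*Shox2* (chr3:66971727-66981771, minus strand, ENSMUSG00000027833.16) had the widest range. It was at 5.62, 6.19 and 9.46 TPM in E9.25 WT and at 1.97, 2.40, 0.962 and 1.90 TPM in E9.25 *Gli3*-/-. At E10.5 it reached 99.2, 118, 113 and 129 TPM in WT and 191, 231 and 176 TPM in *Gli3*-/-. No 2 groups overlapped. The *Gli3*-/- libraries were the lowest of all at E9.25 and the highest of all at E10.5.

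**Figure D1:**
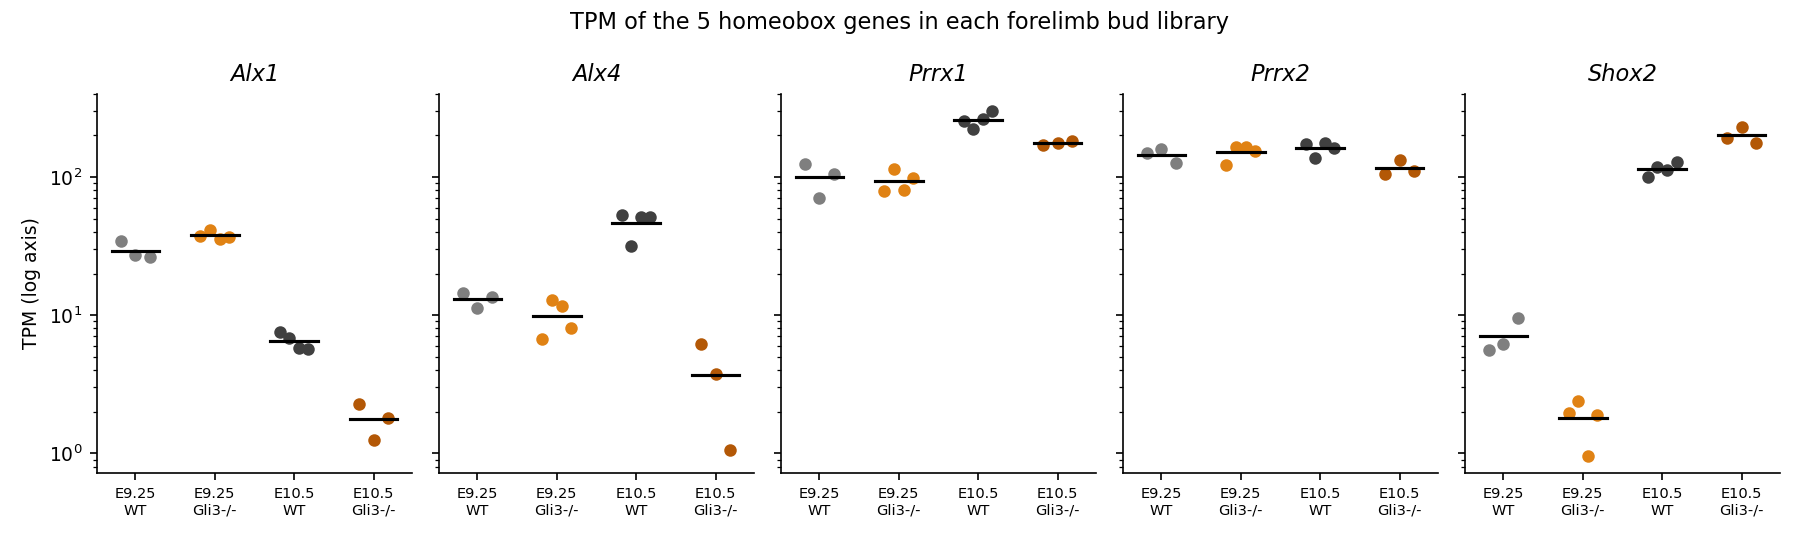
TPM of *Alx1*, *Alx4*, *Prrx1*, *Prrx2* and *Shox2* on a log axis, with 1 panel per gene and 1 point per library in each of the 4 groups (n = 3, 4, 4 and 3, from left to right), and a bar at the group mean. *Alx4* is highest in E10.5 WT (mean 46.7 TPM) and lowest in E10.5 *Gli3*-/- (mean 3.67 TPM), while *Shox2* is lowest in E9.25 *Gli3*-/- (mean 1.81 TPM) and highest in E10.5 *Gli3*-/- (mean 199.7 TPM).

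The order of the mean levels, which TPM allows because it is scaled for length, changed with stage and genotype. Among E9.25 WT libraries it ran *Prrx2* (145 ± 16.7 TPM, SD, n = 3), *Prrx1* (99.97 ± 27.4), *Alx1* (29.2 ± 4.65), *Alx4* (13.1 ± 1.70) and *Shox2* (7.09 ± 2.08). The E9.25 *Gli3*-/- libraries gave the same order, and no neighbours in it overlapped in either genotype. Among E10.5 WT libraries *Prrx1* came first (260.5 ± 32.4 TPM, n = 4), followed by *Prrx2* (162 ± 17.7), *Shox2* (115 ± 12.4), *Alx4* (46.7 ± 9.92) and *Alx1* (6.49 ± 0.894), again with no overlap of neighbours. In E10.5 *Gli3*-/- the order was *Shox2* (199.7 ± 28.4 TPM, n = 3), *Prrx1* (176 ± 5.86), *Prrx2* (116 ± 15.4), *Alx4* (3.67 ± 2.58) and *Alx1* (1.76 ± 0.512). There *Shox2* and *Prrx1* overlapped, as did *Alx4* and *Alx1*, so that neither pair could be ordered beyond its spread.

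The first comparison asked what loss of *Gli3* does in the anterior bud after HH signaling has begun. *Alx4* fell to 7.85% of its WT mean and *Alx1* to 27.2%. *Prrx1* and *Prrx2* fell less, to 67.5% and 71.6% of WT. *Shox2* rose to 174% of WT. All 5 genes passed the test, 4 lower and 1 higher, where 4.77% of the 15654 genes tested passed in either direction. All 5 also had groups that did not overlap, against 19.3% of genes.

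The log2 fold change of *Alx4* on the log2(TPM + 1) scale was -3.51 ± 0.37 (SE), with an adjusted p of 0.00103 from limma, and *Alx4* ranked 5 by size among the genes tested. That of *Alx1* was -1.45 ± 0.16 (adjusted p = 0.00136). Because the pseudocount of 1 weighs on low values, the drop of *Alx1* is understated on this scale. The drop of *Alx4*, which stood at 1.05 TPM in *Gli3*-/- replicate 3, is understated too. Both *Alx* genes passed in every fit that left out 1 library.

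*Prrx1* changed by -0.56 ± 0.10 (adjusted p = 0.0113) and also passed without each library. It missed the threshold with no filter on low TPM (adjusted p = 0.0538) and in 1 model of all 14 libraries (adjusted p = 0.139). *Prrx2* changed by -0.48 ± 0.11 (adjusted p = 0.0404), which held in only 2 of 7 fits with 1 library left out. Its call was lost without WT replicate 1, 3 or 4 or *Gli3*-/- replicate 1 or 3, with adjusted p from 0.0811 to 0.156. It was also lost with no filter on low TPM (adjusted p = 0.120), with no variance trend (0.0716) and in 1 model of all 14 libraries (0.0807). *Shox2* changed by 0.79 ± 0.11 (adjusted p = 0.00456) and passed without each library. The median gene tested changed by -0.02.

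Some cell type markers moved with genotype at E10.5. The summed TPM of the 5 limb mesenchyme markers was 539 to 662 in WT and 407 to 458 in *Gli3*-/-, with *Fgf10* higher and *Twist1* and *Msx1* lower. That of the 6 surface ectoderm and apical ridge markers was 178 to 217 in WT and 267 to 301 in *Gli3*-/-. *Fgf8*, with a mean of 59.1 TPM in WT and 153 TPM in *Gli3*-/-, was the single member that passed. The log2 fold change was above 0 for 2 of the 6, *Fgf8* and *Epcam*, and below 0 for 4. The 5 erythroid markers summed to 10107 to 13825 TPM in WT and 11936 to 33323 TPM in *Gli3*-/-. The 4 muscle progenitor markers summed to 39.1 to 47.6 TPM in WT and 25.4 to 35.0 TPM in *Gli3*-/-, with *Met* lower (-0.57, adjusted p = 0.0251). The 5 somite markers summed to 51.8 to 66.6 TPM in WT and 67.9 to 95.6 TPM in *Gli3*-/-. *Meox2* was higher (0.86, adjusted p = 0.0164), with a mean of 30.7 TPM in WT and 55.8 TPM in *Gli3*-/-. Of the 4 somite markers tested, 2 had a log2 fold change above 0 and 2 below. The sums of these lists did not overlap between genotypes, except those of the erythroid markers, of which none passed. No marker of these 5 lists was at 0 in all libraries of an E10.5 group, and the part of these cells in the results for the 5 homeobox genes was not tested.

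The second comparison asked the same of whole buds at E9.25, before HH signaling. None of the 5 genes passed, and 2 of them, *Shox2* and *Alx1*, had an unadjusted p under 0.05. In this comparison 0.136% of the 14760 genes tested passed, or 20 genes, and 3247 had an unadjusted p under 0.05. The groups of 2 of the 5 genes, again *Shox2* and *Alx1*, did not overlap, against 13.3% of genes. Without WT replicate 2, 18 genes passed, or 0.123% of 14690, and the share with an unadjusted p under 0.05 went from 22.0% to 11.0%. Over the fits with 1 library left out, from 2 (without WT replicate 3) to 196 genes (without WT replicate 1) passed. limma was the sole test run.

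*Shox2* at E9.25 averaged 7.09 TPM in WT and 1.81 TPM in *Gli3*-/-, a 3.92-fold difference. Its log2 fold change was -1.53 ± 0.25 (adjusted p = 0.0619), with a 95% confidence interval from -2.09 to -0.96. The value was -1.60 (adjusted p = 0.0909) without WT replicate 2 and -1.66 (adjusted p = 0.0301) without WT replicate 1, the one library whose removal brought it under the threshold. It also passed with median-of-ratios scaling, at -1.71 (adjusted p = 0.0321), and in a single model of all 14 libraries (adjusted p = 0.00133). It did not pass in the other 5 settings, with adjusted p up to 0.346 (no filter on low TPM), nor without any of the other 6 libraries, with adjusted p up to 0.319 (-1.32 without WT replicate 3). At these levels *Shox2* is close to the filter of 1 TPM in the mutants, and 1 of the 4 libraries lay under it. The pseudocount of 1 therefore understates its log2 fold change.

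*Alx1* differed by 0.37 ± 0.15 (adjusted p = 0.217), or by 0.15 relative to the median gene, which itself was shifted by 0.23. *Alx4* differed by -0.42 ± 0.23 (adjusted p = 0.276), *Prrx1* by -0.08 ± 0.20 (adjusted p = 0.812) and *Prrx2* by 0.06 ± 0.15 (adjusted p = 0.793). The 95% intervals ran from -0.93 to 0.09 for *Alx4*, from -0.53 to 0.37 for *Prrx1* and from -0.26 to 0.39 for *Prrx2*, so that the drop of *Alx4* seen at E10.5 lies far outside its E9.25 interval. Without WT replicate 2 these values were 0.32 for *Alx1*, -0.52 for *Alx4*, -0.31 for *Prrx1* and 0.14 for *Prrx2*, and none passed.

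Markers of the flank moved with genotype at E9.25. The 6 genes of the flank lateral plate mesoderm (*Foxf1*, *Foxf2*, *Gata4*, *Gata6*, *Hand1*, *Isl1*) summed to 19.8 to 51.3 TPM in WT and to 69.0 to 201 TPM in *Gli3*-/-. Of the 5 that were tested, *Foxf1* (3.68, adjusted p = 0.0125) and *Gata4* (2.87, adjusted p = 0.0128) were higher in *Gli3*-/-. Both also passed without WT replicate 2, at 3.35 and 2.97 (adjusted p = 0.0197 for each). *Foxf2* was listed at 0 in every E9.25 WT library. The 5 endothelial markers summed to 42.9 to 69.3 TPM in WT and to 84.3 to 131 TPM in *Gli3*-/-, with none at 0, and none of them passed. The sums of the 6 surface ectoderm and apical ridge markers overlapped, at 147 to 218 TPM in WT and 198 to 340 TPM in *Gli3*-/-. None of these 6 passed either, with 5 log2 fold changes above 0 and 1, that of *Fgf8*, below. The part of flank, endothelial and ectoderm cells in the E9.25 values of the 5 homeobox genes was not tested.

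**Figure D2:**
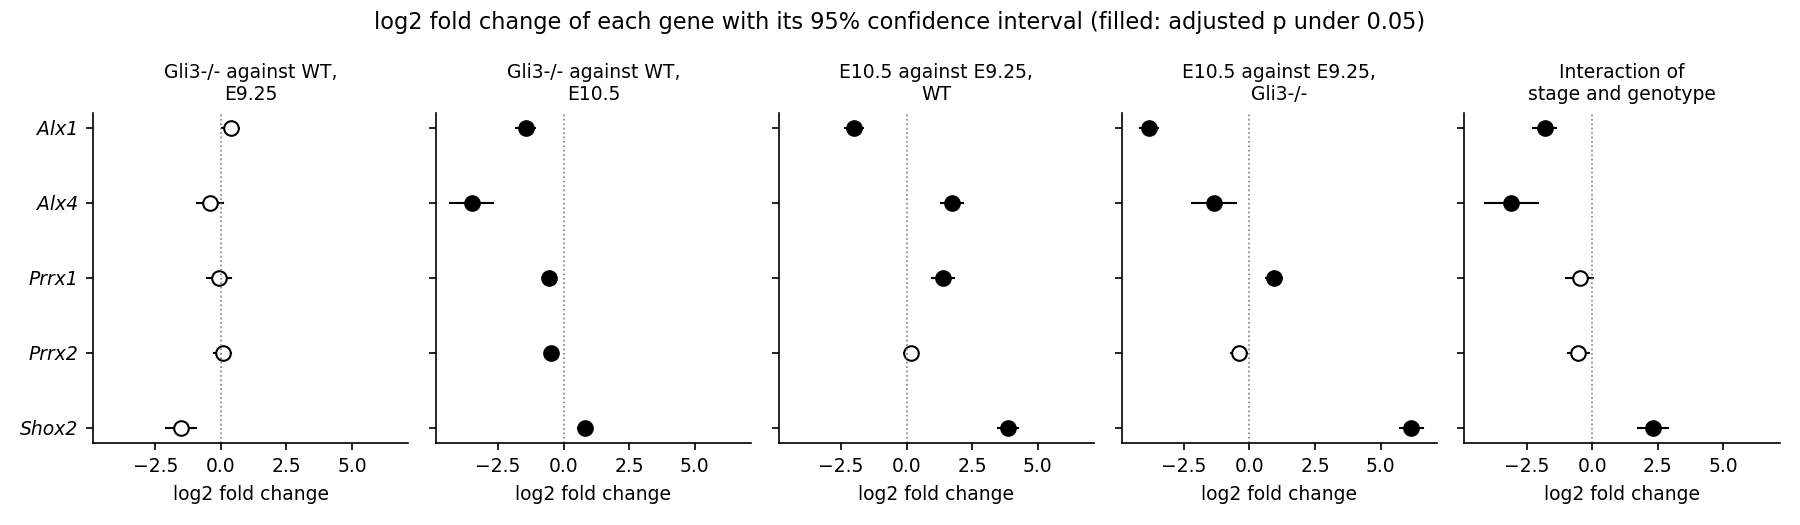
log2 fold change on the log2(TPM + 1) scale (x axis) of each of the 5 genes (y axis) in each comparison, with its 95% confidence interval from limma; filled points have an adjusted p under 0.05. *Alx4* lies on the right in WT (1.74) and on the left in *Gli3*-/- (-1.35) for E10.5 against E9.25.

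The third comparison set anterior E10.5 buds against whole E9.25 buds of the same genotype. In WT, *Shox2* rose 16.2-fold, *Alx4* 3.57-fold and *Prrx1* 2.61-fold in mean TPM, while *Alx1* fell 4.51-fold. These 4 genes passed, where 48.7% of 15444 genes did, and the groups of the same 4 genes did not overlap, where 53.5% of genes did not. The log2 fold changes were 3.86 ± 0.17 for *Shox2* (adjusted p = 1.97e-05), 1.74 ± 0.19 for *Alx4* (adjusted p = 0.000343), 1.40 ± 0.18 for *Prrx1* (adjusted p = 0.000761) and -2.01 ± 0.15 for *Alx1* (adjusted p = 7.16e-05). *Prrx2* differed by 0.16 ± 0.12 (adjusted p = 0.288). The median gene was 0.34 higher at E10.5, and relative to it the values were 3.52, 1.40, 1.07, -2.35 and -0.18. Without WT replicate 2 of E9.25 the log2 fold changes were 3.79, 1.64, 1.17, -2.06 and 0.23 in the same order, the same 4 genes passed, and 43.2% of 15330 genes did. The 6 flank markers went from 19.8 to 51.3 TPM in E9.25 WT to 1.37 to 3.40 TPM in E10.5 WT, and the 4 muscle progenitor markers from 5.88 to 11.5 TPM to 39.1 to 47.6 TPM. The 5 somite markers went from 19.8 to 24.2 TPM to 51.8 to 66.6 TPM, with 3 higher and 1 lower of 4 tested, and *Myf5* was listed at 0 in every E9.25 WT library. The part of these cells was not tested.

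In *Gli3*-/- buds *Shox2* rose 110.5-fold and *Prrx1* 1.89-fold in mean TPM, while *Alx1* fell 21.5-fold and *Alx4* 2.67-fold. These 4 genes passed, where 25% of 15434 genes did, and the same 4 did not overlap, where 35.7% of genes did not. The log2 fold changes were 6.18 ± 0.19 for *Shox2* (adjusted p = 3.96e-08), 0.93 ± 0.13 for *Prrx1* (adjusted p = 0.000774), -3.83 ± 0.15 for *Alx1* (adjusted p = 1.68e-07) and -1.35 ± 0.37 for *Alx4* (adjusted p = 0.0243). The call on *Alx4* was lost without E9.25 *Gli3*-/- replicate 3 (-1.26, adjusted p = 0.0560). It was also lost without E10.5 *Gli3*-/- replicate 2 (-1.45, adjusted p = 0.0597) or 3 (-0.84, adjusted p = 0.0599). With no filter on low TPM it was lost too (adjusted p = 0.0919). *Prrx2* differed by -0.39 ± 0.14 (adjusted p = 0.0619). All 5 flank markers that were tested were lower at E10.5 in *Gli3*-/-, where the 6 markers summed to 1.62 to 2.01 TPM. The muscle progenitor markers went from 6.95 to 7.996 TPM at E9.25 to 25.4 to 35.0 TPM at E10.5, the somite markers from 19.9 to 28.5 TPM to 67.9 to 95.6 TPM, and the limb mesenchyme markers from 468 to 706 TPM to 407 to 458 TPM. Of the ectoderm and endothelial markers, whose sums overlapped, *Krt8*, *Krt18*, *Kdr* and *Tek* were lower and *Fgf8*, *Epcam* and *Pecam1* higher. The part of these cells in the results for the 5 homeobox genes was not tested.

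Both genotype comparisons and both stage comparisons draw on the same 4 groups, so each pair of contrasts that shares a group is not independent. Whether the effect of genotype differed between the stages was tested by the interaction in a model of all 14 libraries. *Alx1*, *Alx4* and *Shox2* passed, 3 of 5 genes, where 2.13% of 16368 genes did. The effect of *Gli3* loss was lower at E10.5 than at E9.25 with an interaction of -3.09 ± 0.47 log2 for *Alx4* (adjusted p = 0.00327) and -1.82 ± 0.21 for *Alx1* (adjusted p = 0.00053). For *Shox2* it was higher, with 2.32 ± 0.27 (adjusted p = 0.00053). The pseudocount of 1 weighs on these 3 values, since each gene stood near 1 TPM in some *Gli3*-/- library. The differences were -0.48 ± 0.24 for *Prrx1* (adjusted p = 0.264) and -0.54 ± 0.19 for *Prrx2* (adjusted p = 0.145), which did not pass, beside -0.24 for the median gene. *Alx1*, *Alx4* and *Shox2* passed in all 14 fits that left out 1 library, with -1.77, -2.99 and 2.39 without E9.25 WT replicate 2. Without it *Prrx1* stood at -0.25 and *Prrx2* at -0.62, neither of which passed, and 1.33% of 16341 genes did. Of the cell type markers, 4 of 5 flank markers tested were lower in the interaction, *Foxf1* (-3.59), *Gata4* (-2.99), *Hand1* (-2.81) and *Gata6* (-1.72), as was *Krt18* (-1.74), while *Fgf8* (2.67) and *Lbx1* (1.07) were higher. Without E9.25 WT replicate 2, *Foxf1*, *Gata4* and *Fgf8* passed and the other 4 did not. The part of these cells in the interaction was not tested.

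Within a library, differences between 2 of the genes do not depend on library size. They were taken as log2(TPM) with no pseudocount and are given as a description, with no test. *Alx4* minus *Prrx1* was -2.90 ± 0.23 log2 (SD, n = 3) in WT and -3.28 ± 0.37 (n = 4) in *Gli3*-/- at E9.25, and -2.50 ± 0.24 (n = 4) in WT and -5.92 ± 1.37 (n = 3) in *Gli3*-/- at E10.5. *Prrx1* was thus 4.82 to 6.99 times *Alx4* in the 4 E10.5 WT libraries and 27.3, 47.3 and 173 times *Alx4* in the 3 *Gli3*-/- libraries. The first 3 groups overlapped in part, and the last stood apart.

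*Shox2* minus *Prrx1* was -3.82 ± 0.57 log2 in WT and -5.75 ± 0.46 in *Gli3*-/- at E9.25, and -1.18 ± 0.19 in E10.5 WT. In E10.5 *Gli3*-/- it was 0.18 ± 0.21, with 2 of 3 libraries above and 1 just below. *Prrx2* exceeded *Prrx1* in all 7 E9.25 libraries (0.57 ± 0.53 in WT and 0.71 ± 0.21 in *Gli3*-/-) and fell short of it in all 7 E10.5 libraries (-0.68 ± 0.16 in WT and -0.61 ± 0.18 in *Gli3*-/-). So the order of the *Prrx* pair switched with stage and was alike between the genotypes. E9.25 WT replicate 2 had the widest *Prrx2* to *Prrx1* ratio of all, at 2.27. *Alx1* minus *Alx4* was 1.16 ± 0.18 in WT and 2.00 ± 0.40 in *Gli3*-/- at E9.25 and -2.83 ± 0.44 in E10.5 WT. In E10.5 *Gli3*-/- it was -0.76 ± 1.33, and *Alx1* was above *Alx4* in replicate 3 alone.

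**Figure D3:**
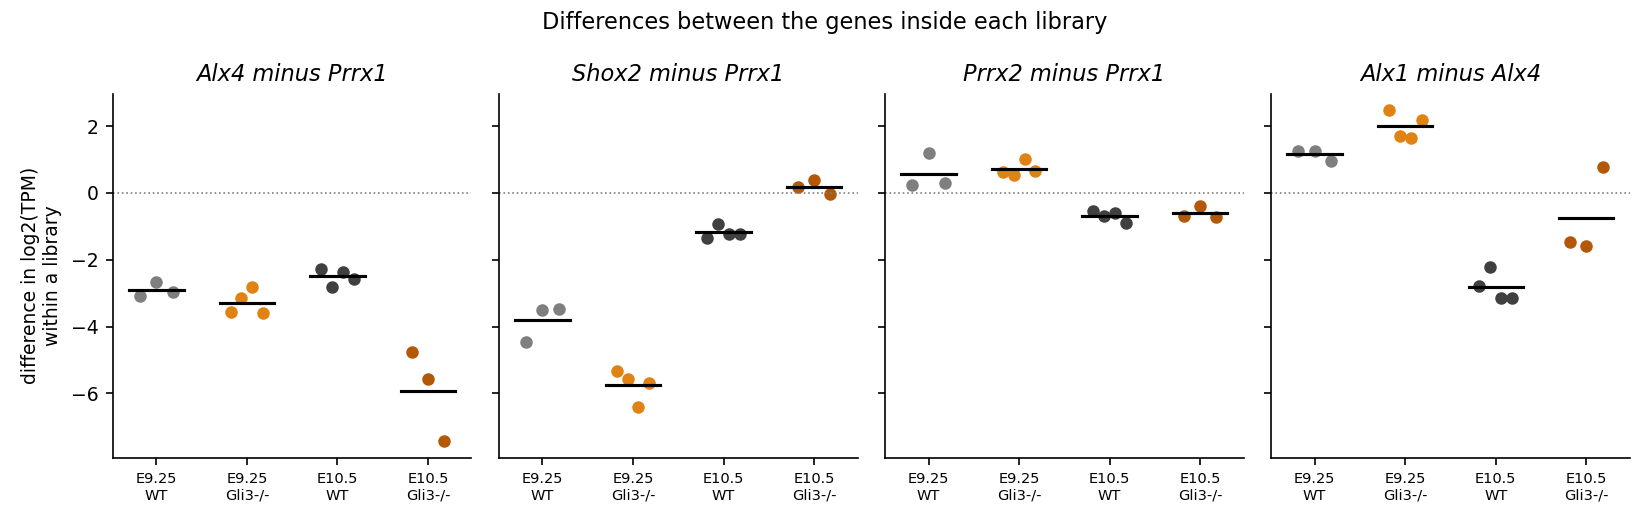
Difference in log2(TPM) between 2 genes inside each library (y axis) for 4 gene pairs, with 1 point per library in each of the 4 groups and a bar at the group mean. The 3 E10.5 *Gli3*-/- libraries lie lowest for *Alx4* minus *Prrx1* (-4.77 to -7.43) and highest for *Shox2* minus *Prrx1* (-0.04 to 0.39).

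Promoter windows of 250 bases before to 50 bases after the RefSeq start site (GRCm38.p6) were used. The set at hand held those of 3 of the 5 genes, *Prrx1*, *Prrx2* and *Shox2*. It held none for *Alx1* and *Alx4*, which says nothing of their annotation. The window is printed for *Prrx1*, which fell in E10.5 *Gli3*-/-, and for *Shox2*, which rose. It runs 5′ to 3′ on the strand of the gene, with the homeodomain core TAAT on either strand in capitals.
Prrx1 (chr1:163313601-163313900, minus strand): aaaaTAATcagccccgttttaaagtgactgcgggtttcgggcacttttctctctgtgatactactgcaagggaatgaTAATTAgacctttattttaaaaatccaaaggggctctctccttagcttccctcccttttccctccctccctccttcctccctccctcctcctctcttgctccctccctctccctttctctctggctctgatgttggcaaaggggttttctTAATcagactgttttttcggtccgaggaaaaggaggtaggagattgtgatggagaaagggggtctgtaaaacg
Shox2 (chr3:66981722-66982021, minus strand): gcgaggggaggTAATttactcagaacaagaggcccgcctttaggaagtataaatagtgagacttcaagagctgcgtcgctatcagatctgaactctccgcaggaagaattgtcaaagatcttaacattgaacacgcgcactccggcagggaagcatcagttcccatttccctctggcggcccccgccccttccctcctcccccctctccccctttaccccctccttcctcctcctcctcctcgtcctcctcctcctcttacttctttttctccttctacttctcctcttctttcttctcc
The start site used is that of the gene table for *Shox2* and lies 60 bases from it for *Prrx1*. For *Prrx2* the RefSeq start site lies 10395 bases inside the span of the gene table.

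The *Prrx1* window holds 4 matches to TAAT, 2 of which overlap in a run that reads the core on both strands. The *Shox2* window holds 1 match, and the *Prrx2* window (chr2:30845117-30845416, plus strand) holds none. Of all 32851 windows, 58.0% hold at least 1 match. The palindrome TAATNNNATTA, on which factors of this class can pair up, was found in none of the 3 windows and in 0.487% of all windows. The GLI site GACCACCCA, searched on both strands, was in none of the 3 windows and in 0.253% of all. The 3 windows differ in composition, with 47.7% G and C and 6 CpG in *Prrx1*, 53.3% and 11 CpG in *Shox2* and 70.3% and 28 CpG in *Prrx2*, beside medians of 52.7% and 7 over all windows. These matches describe the letters in the windows and say nothing of binding.

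Within 200 kb of the 5 genes the tables list 40 other genes, 5 of which overlap a member. At E10.5, 17 of the 40 were tested for genotype, and 2 were lower and 0 higher in *Gli3*-/-, where 4.77% of all genes tested passed. These were *Accs* (-0.53, adjusted p = 0.0206) and *Cd82* (-0.63, adjusted p = 0.0262), both near *Alx4*. The drop of *Alx4* was far larger than either. *Ext2*, which encodes an enzyme of heparan sulfate synthesis and overlaps *Alx4* on the other strand, was at 38.8 TPM in E10.5 WT and 31.7 TPM in *Gli3*-/- (-0.28, adjusted p = 0.141). *Rsrc1* overlaps the start of *Shox2* on the other strand, with 64.4 TPM in E10.5 WT and 61.5 TPM in *Gli3*-/- (-0.07, adjusted p = 0.703). The 3 unnamed genes inside the span of *Prrx1* (*Gm20471*, *Gm26523*, *Gm37644*) reached at most 6.85 TPM in any library. Use of strand in assigning reads is not given in the sources used here, so reads of overlapping genes cannot be told apart.

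Another gene of the paired class, the goosecoid gene *Gsc*, stood at 20.7 to 34.7 TPM in E10.5 WT and at 5.49 to 8.69 TPM in *Gli3*-/- (-1.76 ± 0.19, adjusted p = 0.00136). It was lower in the mutants, as were *Alx1*, *Alx4*, *Prrx1* and *Prrx2*.

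Of 16 transcription factors of the shoulder girdle and proximal limb, 15 were tested at E10.5, and 10 were lower and 0 higher in *Gli3*-/-, where 4.77% of all genes passed. The list holds *Gli3* itself (-1.01, adjusted p = 0.000335), whose call is the genotype, and of the 14 other genes 9 were lower. The largest changes were those of *Pax1* (-4.23), *Irx3* (-3.12), *Irx5* (-2.71), *Hoxc6* (-2.05) and *Meis1* (-1.40). *Pax1* stood at 8.27 to 34.6 TPM in E10.5 WT and at 0 to 0.172 TPM in E10.5 *Gli3*-/-. It passed the filter through the WT libraries alone, and the pseudocount of 1 weighs on the size of its change. *Tbx15*, a factor needed for the scapula, did not pass at E10.5 (0.31 ± 0.10, adjusted p = 0.127) and was lower in *Gli3*-/- at E9.25 (-1.84 ± 0.26, adjusted p = 0.0340), the sole call of the 13 genes tested then, where 0.136% of all genes passed. This call was lost without WT replicate 2 (-1.75, adjusted p = 0.0719), where *Gli3* was the sole call of the list (-1.22, adjusted p = 0.0415). The mean level of *Tbx15* at E9.25 was 5.11 TPM in WT and 0.694 TPM in *Gli3*-/-. Its *Gli3*-/- libraries stood at 0.869, 0.560, 0.272 and 1.07 TPM. It thus passed the filter at E9.25 through the WT libraries, and the pseudocount of 1 weighs on the size of its change. The median of the list was -0.93 at E10.5 and 0.26 at E9.25, beside -0.02 and 0.23 over all genes. Without WT replicate 2 the E9.25 medians were 0.20 and 0.14.

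For stage, 11 of these 15 factors, *Gli3* among them, were higher and 1 lower at E10.5 in WT, where 48.7% of all genes passed. The list's median was 0.88, beside 0.34 over all genes, and *Pax1* (4.36), *Tbx15* (4.12) and *Tbx18* (2.61) were among the higher. Without E9.25 WT replicate 2, 10 were higher and 1 lower, with 4.36, 4.21 and 2.55 for these 3 genes. In *Gli3*-/-, 5 of 14 were higher, *Gli3* again among them, and 7 lower, where 25% of all genes passed. *Irx3* and *Irx5*, homeobox genes of the proximal and anterior limb, had opposite signs in the genotypes, as *Alx4* did, with 0.90 and 0.88 in WT (0.83 and 0.91 without replicate 2 of E9.25) and -2.48 and -1.87 in *Gli3*-/-. *Tbx15* rose in both, by 4.12 and 6.27, as *Shox2* did. In the interaction 1 factor was higher and 8 were lower of 15, where 2.13% of all genes passed. The median over all genes was -0.24. *Pax1* (-4.29), *Irx3* (-3.39) and *Irx5* (-2.75) were lowest and *Tbx15* (2.15) was higher. Without E9.25 WT replicate 2 these values were -4.29, -3.32, -2.78 and 2.06. *Pax1* stood at 0 in every E9.25 WT library and at 0 to 0.182 TPM in E9.25 *Gli3*-/-. Its rise in WT thus starts from 0, and its interaction restates its E10.5 difference. *Gli3* was not among the 9, and without E9.25 WT replicate 2 the counts were again 1 and 8.

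Of 21 genes of skeletal progenitors, 17 were tested at E10.5, and 4 were higher and 6 lower in *Gli3*-/-, where 4.77% of all genes passed. *Hoxd11* (2.11), *Bmp2* (0.95), *Hoxd10* (0.82) and *Hoxa11* (0.80) rose. The largest falls were those of *Msx2* (-2.25) and of *Runx2* (-1.60), a master factor of bone. *Runx2* (1.53 to 5.70 TPM in E10.5 WT, 0.338 to 0.523 TPM in *Gli3*-/-) passed the filter through the WT libraries alone. So did *Gdf5* (1.28 to 2.02 TPM in WT, 0.338 to 0.716 TPM in *Gli3*-/-), also among the 6 lower. At E9.25 none of 16 passed, and 8 had an unadjusted p under 0.05, where 0.136% of all genes passed and 22.0% had such a p. Without WT replicate 2 none passed and 4 of 16 had such a p, where 11.0% of all genes had. The list's median at E10.5 was -0.48. For stage, 8 of 18 were higher and 3 lower in WT, where 48.7% of all genes passed, and 8 and 3 of 17 without E9.25 WT replicate 2. In *Gli3*-/-, 6 of 16 were higher and 6 lower, where 25% passed. *Tnc*, which encodes the matrix protein tenascin C, fell most of the list in both genotypes (-3.17 in WT and -3.84 in *Gli3*-/-), and did not pass the filter on low TPM in WT without that library. *Hoxa11* and *Hoxd11* rose with stage in both genotypes, by 3.26 and 3.84 in WT (3.35 and 3.95 without E9.25 replicate 2) and by 5.77 and 6.93 in *Gli3*-/-, beside 3.86 and 6.18 for *Shox2*.

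**Figure D4:**
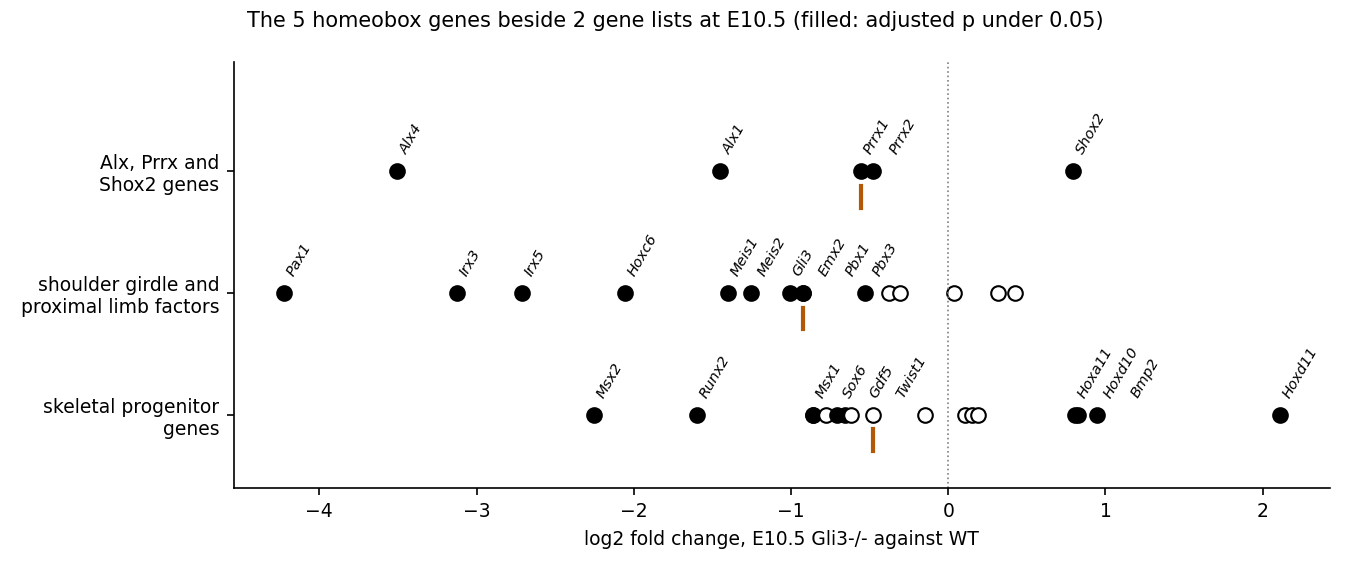
log2 fold change of E10.5 *Gli3*-/- against WT on the log2(TPM + 1) scale (x axis) for the 5 homeobox genes and 2 gene lists (y axis), with 1 point per gene tested, filled and named where the adjusted p from limma was under 0.05 (*Gli3*, the mutated gene, included), and a colored mark at each median. *Alx4* (-3.51) lies between *Pax1* (-4.23) and *Irx3* (-3.12), and *Shox2* (0.79) beside *Hoxa11* (0.80) and *Hoxd10* (0.82).

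The genes whose levels ran most like each of the 5 across the 14 libraries were found by Pearson's r of log2(TPM + 1). The libraries fall into the 4 groups, so that r mostly follows the group means, and it is given as a description. *Shox2* was most like *Tbx15* (r = 0.995), *Hoxa11os*, the antisense gene of *Hoxa11* (0.995), and *Vcam1* (0.994). *Alx1* was most like *Hoxb5os* (0.985), *Hoxb8* (0.983) and *Metrn* (0.979). *Hoxb8* averaged 22.8 TPM in WT and 26.5 TPM in *Gli3*-/- at E9.25, and 4.64 and 1.10 TPM at E10.5.

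*Alx4* was most like *Irx5* (0.927), *Gm43672* (0.914) and *Gdf10* (0.909), of which *Irx5* averaged 10.6 TPM in WT and 11.0 TPM in *Gli3*-/- at E9.25 and 20.2 TPM in WT and 2.50 TPM in *Gli3*-/- at E10.5. *Prrx1* was most like *Slc6a17* (0.975), *Sema4g* (0.971) and *Pdgfc* (0.971), and *Prrx2* most like *Lmf1* (0.895), *Tbx2* (0.875) and *Hs3st3a1* (0.865). Among the 5 genes themselves r was -0.96 for *Alx1* and *Shox2*, 0.86 for *Prrx1* and *Shox2*, 0.70 for *Alx4* and *Prrx2*, 0.14 for *Alx1* and *Alx4* and 0.07 for *Prrx1* and *Prrx2*. Neither pair of close relatives ran together across the 14 libraries.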

How the data were processed

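RNA from pooled forelimb buds was extracted with TRIzol, and the authors sequenced single reads of 100 bases and aligned them with HISAT2. For each library the authors deposited the coverage of each gene (mean depth per base), its FPKM and its TPM. The deposited TPM sums to the same total in every library and was used for every comparison, and coverage and FPKM served only to estimate reads. The tool behind these values, the annotation and the use of strand are not given in the sources used here. The authors tested genes with DESeq2, which needs counts and was not run. TPM of repeated gene IDs was summed. Genes that reached 1 TPM in 3 or more libraries of a fit were tested with limma 3.58.1 (R 4.3.3) on log2(TPM + 1) with a variance trend, two-sided, with Benjamini-Hochberg adjustment over all genes and a threshold of 0.05. The procedure was tested on simulated data. Tables were handled in Python 3.11.15 (pandas 2.3.3). Alternatives comprised a pseudocount of 0.1, a filter at 5 TPM or none, no trend, median-of-ratios scaling, replicate blocks, 1 model of all 14 libraries and each library left out. Named genes were the 5 homeobox genes, *Gli3*, overlapping genes, genes within 200 kb that passed at E10.5, at most 5 calls per list and comparison by size, and the 3 genes most alike in pattern. *Tbx15*, *Hoxd10*, *Hoxa11* and *Gdf5* at E10.5, *Irx3* and *Irx5* for stage in WT and *Gli3* in its list were chosen after their values were seen. So were the names of markers and overlapping genes that did not pass. The 5 genes and all lists were chosen with earlier results of these data known. Some fixed genes and 1 fixed list are not reported here. The other assays of the series were not analysed here.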

Additional observations from a re-analysis of the deposited data

Results flagged for a closer look

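The effect of *Gli3* loss differed between E9.25 and E10.5 for *Alx1* (interaction -1.82), *Alx4* (-3.09) and *Shox2* (2.32), each with an adjusted p under 0.05 in limma. Of these, 2 had effects of opposite sign in early and later buds, *Shox2* (-1.53, then 0.79) and *Alx1* (0.37, then -1.45), and neither E9.25 effect passed on its own. The E9.25 effect of *Alx1* was 0.15 relative to the median gene, and ran from 0.13 to 0.39 under the other settings.

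*Alx4* in E10.5 WT replicate 2 (31.9 TPM, or 5.04 on the log2(TPM + 1) scale) lay further below the other 3 WT libraries (51.0 to 52.9 TPM) than Dixon's criterion for groups of 4 allows. Of 10 groups of 4 libraries examined this was the 1 so marked, where chance marks about 1 in 20. Without that library the E10.5 difference in *Alx4* was -3.67, against -3.51 with it.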

How the results depend on the processing

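Of the log2 fold changes of the 5 genes under the alternatives, 357 kept their direction and their side of the threshold, 18 fell below it, 6 rose above it and 4 changed sign. At E10.5, 747 genes differed between genotypes, against 391 with no filter and 386 in 1 model of all 14 libraries. *Prrx1* (-0.56) was not called with no filter (adjusted p = 0.0538) or in that model (0.139), nor was *Prrx2* (-0.48), which also missed the threshold with no trend (adjusted p from 0.0716 to 0.120). At E9.25, 20 genes differed, against 796 in the 14-library model, where *Shox2* (-1.53) was called, and 0 with no filter, where 3542 genes had an unadjusted p under 0.05 in limma. Median-of-ratios scaling moved the median gene from 0.23 to 0.01 at E9.25, from 0.34 to 0.01 for stage in WT and from -0.24 to 0.00 in the interaction. With it *Prrx2* changed sign at E9.25 (-0.19) and for stage in WT (-0.21), neither called, *Shox2* was called at E9.25 (-1.71), and *Prrx2* was called for stage in *Gli3*-/- (-0.47). *Prrx2* was called there in the 14-library model too (-0.39), and *Alx4* (-1.35) was not with no filter (adjusted p = 0.0919). With scaling, 3008 genes were higher and 3355 lower at E10.5 in WT, against 5885 and 1635. The causes were not tested.

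Same-numbered libraries did not deviate together with the titles' numbers (mean r from -0.17 to 0.04). With the numbers of the deposited tables, mean r at E10.5 was 0.17 (0.05 to 0.29 over 3 pairs), against -0.06 for libraries of unlike number. Not every pair passed 0.1, so that the replicate block is given only here. With the replicate block 164 genes differed at E10.5, 66 at E9.25, 4699 for stage in WT and 42 in the interaction, where 348 did. *Prrx1* (-0.48) and *Prrx2* (-0.48) at E10.5 were not called, nor were *Alx4* (-3.11, adjusted p = 0.0769) and *Shox2* (2.40, adjusted p = 0.0528) in the interaction. With the numbers of the deposited tables, which differ for E10.5 *Gli3*-/-, 498 genes differed at E10.5, and all 5 genes were called.

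With 1 library left out, the counts ran from 301 (without *Gli3*-/- replicate 3) to 680 at E10.5, from 2 (without WT replicate 3) to 196 (without WT replicate 1) at E9.25, from 5139 to 8305 for stage in WT, from 2129 (without E10.5 replicate 2) to 4326 for stage in *Gli3*-/- and from 150 to 1433 (without E9.25 WT replicate 1) in the interaction. The log2 fold changes ran from -0.58 to -0.41 for *Prrx2* at E10.5. At E9.25 they ran from -0.31 to 0.10 for *Prrx1*, -0.029 to 0.16 (the lower without WT replicate 3) for *Prrx2* and -1.66 to -1.32 for *Shox2*. For stage in *Gli3*-/- they ran from -1.75 to -0.84 for *Alx4* and from -0.49 to -0.32 for *Prrx2*, which was called without E9.25 replicate 1. Depth limits *Alx1*, *Alx4* and *Shox2* most, where they stand near 1 TPM.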
